A study of Homo sapiens with 6 samples.

Results

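The genes described here encode the kinesins, a family of motors that move along microtubules, and the centromere proteins whose symbols begin with CENP. They were chosen by symbol only (KIF followed by a number, KIFC followed by a number, or CENP followed by a letter), which found 63 of the 47577 loci in the deposited table, 42 kinesin and 21 CENP loci. Of these, 61 reached 10 normalized reads in at least 3 of the 6 libraries and were tested. KIF2B was at 0 in every library and KIF25 reached 1.86 in DMSO replicate 2 and 0 elsewhere, so neither was tested. CENPR is listed under its other symbol, ITGB3BP, which the rule does not find, and is counted with the partner genes.

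The libraries come from OVCAR3, an established line of high-grade serous ovarian cancer cells. THZ531, a covalent inhibitor of the transcriptional kinases CDK12 and CDK13, was given at 200 nM for 6 h (3 libraries) and compared with its solvent DMSO over 6 h (3 libraries), with no other agent and in this 1 line only. A treatment note shared by all samples names THZ1 instead, a related inhibitor, at the same dose; titles and descriptions name THZ531, and the samples were assigned by these. Replicates are numbered in the labels, which do not say whether they were separate cultures, so p-values measure the spread between these libraries, which may be technical.

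Kinesins use ATP to walk along microtubules or, in a few families, to take microtubule ends apart. In interphase they carry vesicles, organelles and mRNA, and in mitosis another set of them builds the spindle, lines up the chromosomes and completes cytokinesis. CENP proteins mark the centromere and build on it the kinetochore, to which spindle microtubules attach. Many genes of mitosis are switched on late in the cell cycle through promoters that hold a CHR element (cell cycle genes homology region) close to the start of transcription and CCAAT boxes upstream of it. CDK12 and CDK13 phosphorylate RNA polymerase II and sustain elongation, and their inhibition is known to favour polyadenylation within introns, above all in long genes.

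Promoter sequence was looked up because the mitotic kinesins, listed together by their role in cell division, did not share a response to THZ531. The RefSeq promoter table (GRCh38.p14, 300 bases around each start) held 50 of the 61 tested members. The motifs searched were TTTGAA or its reverse complement TTCAAA for the CHR and CCAAT or its reverse complement ATTGG for the CCAAT box, on both strands. The 2 motifs can share no more than 1 base. A CHR-like variant, TTTAAA, was counted apart from these 2. A stretch of 130 bases is printed here for 6 mitotic kinesins that hold both motifs and for 2 members that fell and hold neither, from 110 bases before the start to base 20 of the transcript, 5′ to 3′ on the strand of the gene, with motif matches in capitals. KIF23 rose, KIF11, KIF4A and KIF18A were not called, and KIF14 and KIF18B fell.
KIF23, chr15:69414239-69414368, plus strand: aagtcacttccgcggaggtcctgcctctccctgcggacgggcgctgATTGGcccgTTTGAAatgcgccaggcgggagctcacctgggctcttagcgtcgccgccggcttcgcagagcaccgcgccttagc
KIF11, chr10:92593020-92593149, plus strand: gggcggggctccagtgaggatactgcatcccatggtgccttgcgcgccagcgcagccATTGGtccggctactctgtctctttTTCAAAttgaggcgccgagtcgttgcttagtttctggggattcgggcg
KIF4A, chrX:70289994-70290123, plus strand: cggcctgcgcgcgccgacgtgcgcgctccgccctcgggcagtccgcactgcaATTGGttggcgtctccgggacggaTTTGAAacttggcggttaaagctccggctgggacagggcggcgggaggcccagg
KIF18A, chr11:28108137-28108266, minus strand: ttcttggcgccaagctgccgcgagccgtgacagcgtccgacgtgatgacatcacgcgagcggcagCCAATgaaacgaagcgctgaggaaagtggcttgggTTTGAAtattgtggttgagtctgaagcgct
KIF14, chr1:200620732-200620861, minus strand: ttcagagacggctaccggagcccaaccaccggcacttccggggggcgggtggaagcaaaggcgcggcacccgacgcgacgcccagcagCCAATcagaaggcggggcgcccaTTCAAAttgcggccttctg
KIF18B, chr17:44947754-44947883, minus strand: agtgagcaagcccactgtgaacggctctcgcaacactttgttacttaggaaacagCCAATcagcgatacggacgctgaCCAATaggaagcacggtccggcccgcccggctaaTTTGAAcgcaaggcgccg
KIF2A, chr5:62306096-62306225, plus strand: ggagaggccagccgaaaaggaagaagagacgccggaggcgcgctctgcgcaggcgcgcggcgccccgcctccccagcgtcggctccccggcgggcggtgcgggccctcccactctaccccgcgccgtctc
CENPB, chr20:3786721-3786850, minus strand: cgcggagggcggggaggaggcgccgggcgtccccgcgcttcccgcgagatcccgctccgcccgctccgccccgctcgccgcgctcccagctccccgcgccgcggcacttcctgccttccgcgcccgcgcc

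In KIF23 the CHR match began 55 bases upstream of the start, in KIF4A 34, in KIF11 28 and in KIF18A 10, while in KIF14 and KIF18B it began at base 2 and base 3 of the transcript. It also began within the transcript in KIFC1 (base 5), KIF4B (base 4) and KIF20B (bases 25 and 31), which were not called. In KIF15, not called either, it began 35 bases upstream. The 300-base window held a CHR match in 10 of 14 mitotic kinesins (71.4%), 1 of 12 transport kinesins (8.33%, KIF5B) and 0 of 6 ciliary and other kinesins. A CHR match was also present in 5 CENP genes (CENPA, CENPC, CENPF, CENPN and CENPO). The shares were 13.7% of the 11510 tested loci with a promoter entry and 18.2% of all 27305 genes of the promoter table, and the same 2 sets are used below. A CCAAT match was present in 11 of 14 mitotic kinesins (78.6%), against 42.7% of tested loci and 39.7% of all genes. Both matches together were found in 9 of 14 mitotic kinesins (64.3%), 7.51% of tested loci and 8.37% of all genes. Among the members with a promoter in the table they were found in 3 of 6 that rose (KIF23, KIF5B and CENPC), 2 of 8 that fell (KIF14 and KIF18B) and 9 of 36 that were not called. This count takes no account of the place or order of the matches. In KIF5B the CHR match began 140 bases upstream, beyond the CCAAT match at 59. In CENPC it began 90 bases upstream, between CCAAT matches at 129 and 43. The CHR-like TTTAAA, counted apart, was found in 4 of 14 mitotic kinesins (28.6%), 10.9% of tested loci and 14.5% of all genes. A match is a description of letters in this window, not a binding site or a cause.

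Values are normalized reads, for which the authors divided the count of each locus by the size factor of its library, and they are not corrected for length. The 6 libraries held between 53054048 and 70986130 reads on loci. A gene was called at a fold change of at least 1.5 (0.58 on the log2 scale) with an unadjusted p of at most 0.05 in limma on log2(value + 1), the thresholds of the study, and "rose" and "fell" are used below of these genes only. This scale understates the change of genes with few reads. All 10 epithelial and serous ovarian markers examined reached the minimum, among them KRT8, EPCAM and WT1, and only PAX8 was called, with a log2 fold change of -3.18. Of 9 markers of immune, endothelial and fibroblast cells, 6 were tested, and COL1A1 and VWF rose by 1.14 and 0.73 on the log2 scale. The summed level of the 6 tested markers lay between 1577 and 1664 normalized reads in DMSO and between 2801 and 3004 in THZ531. CD3E did not reach the minimum and was at 0 throughout. The part of these 9 markers in the results below was not tested.

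Across the 61 members, 6 rose and 10 fell (26.2% called), where 39.5% of all 17568 loci tested and 37.0% of the 15278 with a symbol were called. By direction, the shares were 15.7% up and 23.9% down over all loci, and 13.3% up and 23.7% down over loci with a symbol. The members that rose were CENPC, KIF1B, CENPW, KIF5B, KIF23 and CENPU. Those that fell were KIF24, KIF27, CENPB, KIF6, KIF2A, KIF3C, CENPI, KIF26B, KIF14 and KIF18B. All 16 had groups that did not overlap. Of all loci tested, 39.5% were called and 38.6% were both called and without overlap. Without the size condition, 35 members had an adjusted p (limma, Benjamini-Hochberg over all loci) of at most 0.05, 17 higher and 18 lower in THZ531, against 68.6% of all loci (34.6% higher and 34.1% lower), and 39 members had groups that did not overlap, against 71.7%. The median log2 fold change was -0.10 for the 40 kinesin genes, 0.09 for the 21 CENP genes and -0.01 for all loci. The CENP median turned to -0.15 with all libraries set to an equal sum and to -0.40 with scaling to RPL34, and the kinesin median was -0.04 without DMSO replicate 1. In bulk RNA, fewer cells at a stage of the cycle and less RNA per cell cannot be told apart.

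**Figure D1:**
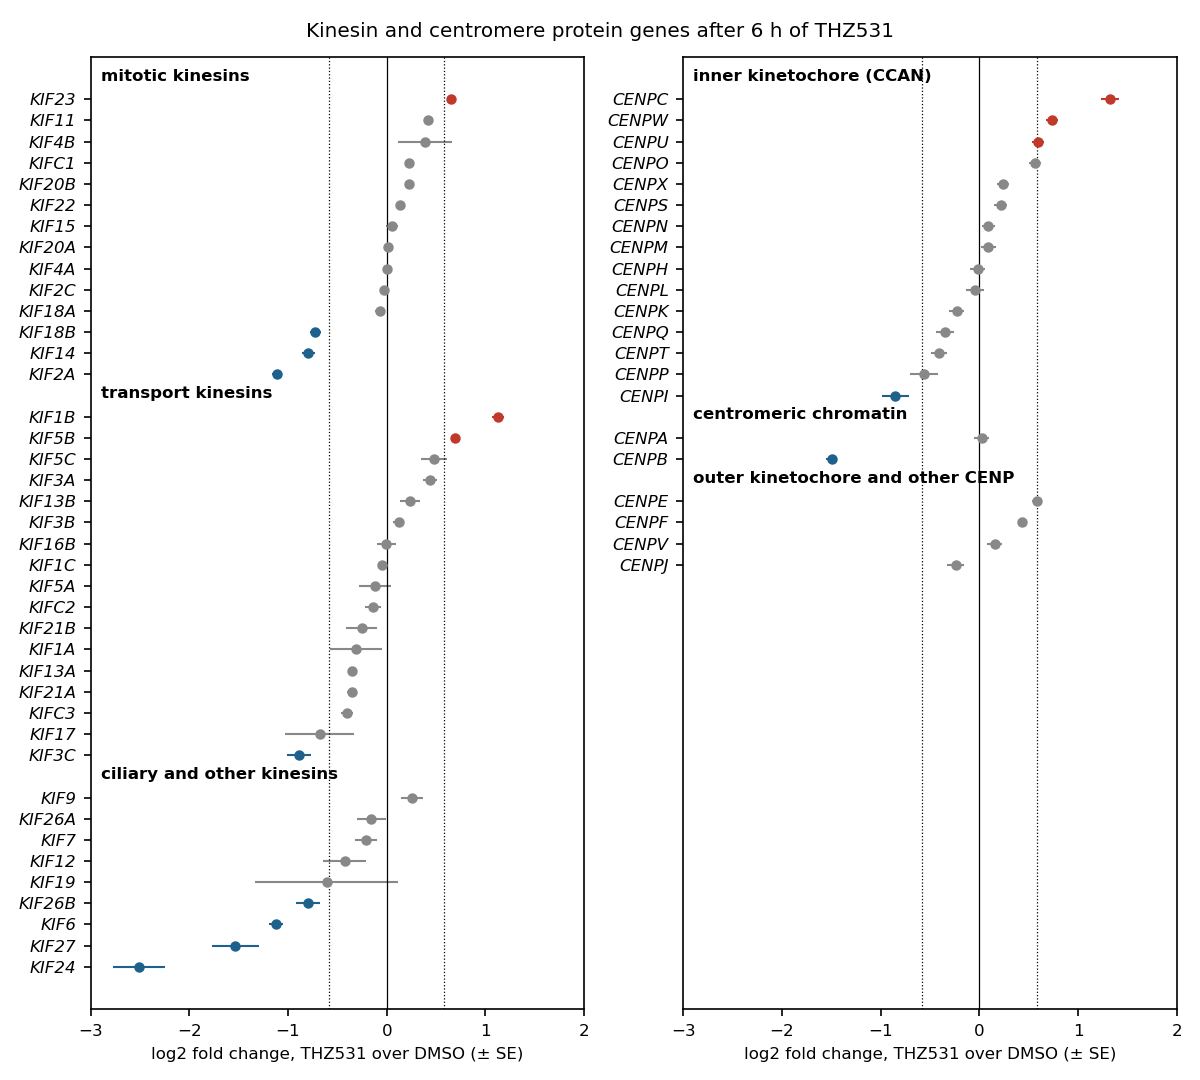
Log2 fold change (THZ531 over DMSO, x axis, with limma standard errors as bars) of each tested member, arranged by role, with coloured points for called genes and dotted lines at the fold change threshold of 1.5. The 16 called genes run from KIF24 at -2.51 to CENPC at 1.32, while most members lie between the dotted lines.

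The split of directions moved with the scaling. When all libraries were set to an equal sum of reads, which moved the median of all loci by -0.24 on the log2 scale, 2 members rose and 18 fell, where 9.38% and 32.0% of all loci did. Scaled to the ribosomal protein gene RPL34, which moved that median by -0.49, 2 members rose and 26 fell, where 6.14% and 42.8% of all loci did. On the deposited values, without rescaling, CENPC and KIF1B were the members with a gain past the threshold of 2-fold. KIF24, KIF27, CENPB, KIF6 and KIF2A were those with a loss past it on the same values. With the equal sum, KIF5B, KIF23, CENPW and CENPU kept their sign and were no longer called, while KIF12 (-0.67), CENPT (-0.65), KIFC3 (-0.65), KIF21A (-0.60) and KIF13A (-0.60) were called as fallen, as were KIF17, CENPP and CENPQ.

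Among the mitotic kinesins, 1 of 14 tested genes rose, 3 fell and 10 were not called, with a median log2 fold change of 0.03. KIF23 (MKLP1), the motor of the centralspindlin complex that organises the midzone in cytokinesis, had 14222, 13772 and 14318 normalized reads in DMSO and 22630.0, 21646 and 22360.0 in THZ531. Every THZ531 library was above every DMSO library, and the log2 fold change was 0.66 (SE 0.034, adjusted p = 1.1e-10 in limma). With 3854 normalized reads per kb of mRNA in DMSO, KIF23 was also the member with the highest level per length, followed by KIFC1 at 3154. The antisense locus KIF23-AS1 overlaps it by 726 bases and had a log2 fold change of -1.42 (SE 0.26).

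KIF2A fell the most in this group. It encodes a kinesin-13, which depolymerises microtubule ends at the spindle poles and also in neurons and cilia. The locus (hg38 chr5:62306206-62391025, 21 exons) had 3899, 4031 and 4142 normalized reads in DMSO and 1788, 1832 and 1945 in THZ531. The groups lay far apart, with a mean of 4024 ± 122 (SD, n = 3) against 1855 ± 81.0 and a log2 fold change of -1.12 (SE 0.05, adjusted p = 1.9e-11 in limma). The end of the gene overlaps the antisense gene DIMT1 by 3772 bases, and DIMT1 had a log2 fold change of -0.40. How strand was treated in counting is not given in the sources used here.

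KIF2C (MCAK), the kinesin-13 of the centromere, had 6373, 5988 and 5924 normalized reads in DMSO and 5815, 5876 and 6309.6 in THZ531, and the groups overlapped. The log2 ratio of KIF2A to KIF2C therefore ran from -0.71 to -0.52 in DMSO and from -1.70 to -1.68 in THZ531, a difference of -1.09 (SE 0.058).

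KIF14, a motor of the midbody that acts in late cytokinesis, had 1978, 1962 and 2250.1 normalized reads in DMSO and 1202, 1121 and 1244 in THZ531. The lowest DMSO library was well above the highest THZ531 library, and the log2 fold change was -0.79 (SE 0.066, adjusted p = 2.6e-08 in limma). KIF18B, a kinesin-8 that shortens astral microtubules, had 1791, 1909 and 1814 in DMSO and 1126, 1096 and 1114 in THZ531, with a log2 fold change of -0.72 (SE 0.057).

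The other kinesin-8, KIF18A, damps the movement of chromosomes at the metaphase plate. It had 2902, 2802 and 3029 normalized reads in DMSO and 2862, 2780.4 and 2680.4 in THZ531. These groups overlapped and the log2 fold change was -0.07 (SE 0.049). The log2 ratio of KIF18A to KIF18B went from 0.66 to 1.32, by 0.65 (SE 0.062). Both promoters hold a CHR and a CCAAT match, and the part of these motifs in the ratio was not tested.

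KIF11 (Eg5), the tetrameric motor that pushes spindle poles apart, had 3082, 3094 and 3300.1 normalized reads in DMSO and 4330.1, 4205 and 4137 in THZ531. All THZ531 libraries were higher, by 0.42 on the log2 scale (SE 0.046, adjusted p = 5.4e-07 in limma), which is under the fold change threshold. KIFC1, a minus-end motor that clusters centrosomes, was likewise under it, with 7686, 7566 and 7369 in DMSO, 8946, 8659 and 8893 in THZ531 and a log2 fold change of 0.23 (SE 0.037). KIF20A (MKLP2), which brings the chromosomal passenger complex to the midzone, had 6348, 6237 and 6487 in DMSO and 6485, 6194 and 6509 in THZ531. Its groups overlapped, with a log2 fold change of 0.01 (SE 0.039).

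KIF4A, a chromokinesin, had a log2 fold change of 0.00 (SE 0.044). Its near-identical intronless copy KIF4B had between 49.2 and 116 normalized reads with overlapping groups, and its reads cannot be told apart from those of KIF4A with certainty. The span of KIF4A also contains DLG3 on the same strand, with a log2 fold change of 0.18. KIF20B and KIF22 differed by 0.23 and 0.14 with groups that did not overlap, and KIF15 by 0.05 with groups that did.

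**Figure D2:**
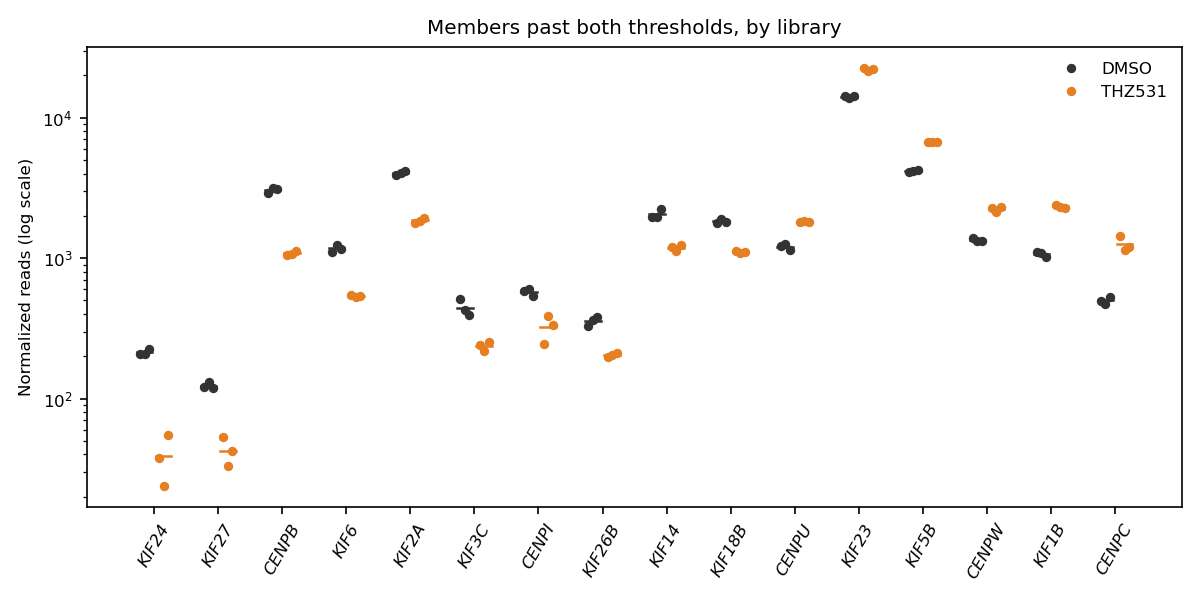
Normalized reads (y axis, log scale) of each called member in the 3 DMSO and the 3 THZ531 libraries, 1 point per library. In all 16 genes the points of both groups are apart, from KIF23 at 13772 or more to KIF24, which falls from 207 or more in DMSO to 54.6 or less in THZ531.

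Among 17 transport kinesins, 2 rose, 1 fell and 14 were not called, with a median log2 fold change of -0.12. KIF1B, a kinesin-3 that carries synaptic vesicle precursors and mitochondria, had 1103, 1095 and 1011 normalized reads in DMSO and 2407, 2329 and 2284 in THZ531. It more than doubled in every comparison of libraries, with a mean of 1069.5 ± 50.9 (SD, n = 3) against 2340.1 ± 61.9 and a log2 fold change of 1.13 (SE 0.058, adjusted p = 8.9e-11 in limma). The gene spans 171 kb with 49 exons (hg38 chr1:10210570-10381603). Its paralog KIF1C, a motor of dense core vesicles, was between 15690.0 and 16770.0 in all libraries, with a log2 fold change of -0.05 (SE 0.033). The log2 ratio of KIF1B to KIF1C thus differed by 1.18 (SE 0.05) between the groups.

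KIF5B, the ubiquitous heavy chain of conventional kinesin, had 4119, 4164 and 4222 normalized reads in DMSO and 6747, 6730.4 and 6745 in THZ531. The spread within each group was small beside the gap, and the log2 fold change was 0.69 (SE 0.038, adjusted p = 2.1e-10 in limma). The neuronal heavy chains were far lower per length, at 39.1 (KIF5A) and 33.2 (KIF5C) normalized reads per kb of mRNA in DMSO against 711 for KIF5B. KIF5C had a log2 fold change of 0.48 with groups apart, and KIF5A one of -0.12 with groups that overlapped. Their standard errors were 0.13 and 0.16.

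The kinesin-2 motors of intraflagellar transport split. KIF3A, which pairs with KIF3B or KIF3C, had 1254, 1326 and 1548 normalized reads in DMSO and 1812, 1853 and 1922 in THZ531. The groups did not overlap, and the log2 fold change of 0.44 (SE 0.071) was under the threshold. Its locus lies within a joined locus named IL5 // SHROOM1 on the same strand, which had a log2 fold change of -0.41. KIF3B, with 0.12 (SE 0.054), was also not called.

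KIF3C fell, from 509, 427 and 391.8 normalized reads in DMSO to 241, 217 and 254 in THZ531. The highest THZ531 library was under the lowest DMSO library, with a log2 fold change of -0.89 (SE 0.12, adjusted p = 8.6e-06 in limma), and the log2 ratio of KIF3B to KIF3C rose from between 1.93 and 2.32 to between 3.07 and 3.35. A locus without a symbol lies in the first intron of KIF3C, on its strand (hg38 chr2:25976031-25978272), from base 2101 to base 4342 of an intron of 23928 bases. This locus had 1.59, 3.71 and 3.19 normalized reads in DMSO and 55.4, 31.8 and 64.8 in THZ531. It was nearly silent in DMSO and above the minimum in every THZ531 library, and it was kept among the tested loci through its THZ531 values alone, so its log2 fold change of 3.74 is given as a description with no test. The intron holds 8 AATAAA hexamers on the strand of the gene, the canonical polyadenylation signal. The first starts at base 7507, downstream of the locus, and 0 lie within it.

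Other transport kinesins were lower in THZ531 without reaching the threshold: KIFC3 at -0.40, KIF13A at -0.36 and KIF21A at -0.36 on the log2 scale, each with groups that did not overlap. The log2 ratio of KIF13A to its lower paralog KIF13B, which was at 0.23, went from 3.52 to 2.93, a difference of -0.59 (SE 0.11). KIF17, a dendritic and ciliary motor, had a log2 fold change of -0.68 but an adjusted p of 0.094 in limma, and its DMSO libraries ranged from 40.8 to 125 normalized reads. It was called as fallen with edgeR (-0.85), with DESeq2 (-0.82), without DMSO replicate 2 (-1.10), with the equal sum (-0.92) and with a replicate block (-0.68).

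Over 18 pairs of paralogs, the log2 ratio did not overlap between the groups in 14, where 71.7% of single loci did not overlap either, and pairs of other genes were not examined. The smallest two-sided exact permutation p was 0.1, the smallest that 3 against 3 libraries allow, and 0.129 after Benjamini-Hochberg adjustment over the 18 pairs. No pair can pass 0.05 in this design.

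Of 9 tested ciliary and other kinesins, 4 fell and none rose by limma, at either the called thresholds or an adjusted p of at most 0.05, and the median log2 fold change was -0.61. Over all loci, 23.9% fell and 15.7% rose, and 34.1% and 34.6% had such an adjusted p in these directions, so with 9 genes the count is given as a description of the list. KIF24, which restrains the outgrowth of cilia at the mother centriole, had 207, 209 and 225 normalized reads in DMSO and 37.8, 23.9 and 54.6 in THZ531. It was the largest loss of all members, 5.51-fold by the means, with a log2 fold change of -2.51 (SE 0.26, adjusted p = 3.4e-07 in limma). It overlaps the antisense gene UBAP1 by 40548 bases, and UBAP1 had a log2 fold change of -0.05.

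KIF6, a motor of motile cilia, had 1112, 1249 and 1153 normalized reads in DMSO and 548, 529.7 and 534 in THZ531, a log2 fold change of -1.12 (SE 0.074, adjusted p = 1.7e-09 in limma). It spans 395 kb, had groups far apart and was the highest of this list per length, at 129 normalized reads per kb of mRNA in DMSO. KIF26B, an atypical kinesin with the longest span of the members that were called (554 kb), had 331, 362 and 384 in DMSO and 199, 206 and 212 in THZ531, with a log2 fold change of -0.80 (SE 0.12). KIF27, a relative of the Hedgehog pathway kinesin KIF7, fell by 1.54 on the log2 scale, from a mean of 124 ± 7.16 (SD, n = 3) to 42.7 ± 9.98. KIF7 itself had -0.21, KIF26A -0.16, KIF12 -0.43 and KIF9 0.26, none of them called.

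KIF19, a kinesin that limits the length of cilia, was at 30.2, 6.50 and 9.57 normalized reads in DMSO and 10.1, 2.27 and 18.2 in THZ531. These values overlapped, and the sign of its log2 fold change (-0.61, SE 0.72) turned to 0.11 without THZ531 replicate 2.

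Of the genes listed under centromeric chromatin, CENPB fell and CENPA was not called. CENPB, which binds a short motif in alpha satellite DNA, had 2897, 3168 and 3093 normalized reads in DMSO and 1052, 1062 and 1129 in THZ531. The groups were far apart, with a log2 fold change of -1.50 (SE 0.057, adjusted p = 3.4e-12 in limma), the smallest adjusted p of any member. CENPB has 1 exon and spans 2.89 kb (hg38 chr20:3783851-3786740), the shortest locus among the tested members. Of 327 tested loci with a single-exon transcript, 22.3% fell and 33.9% rose. CENPA, the histone variant that defines the centromere, had 1041, 1159 and 1046 in DMSO and 1055, 1044 and 1201 in THZ531. Its groups overlapped, with a log2 fold change of 0.02 (SE 0.074).

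In the constitutive centromere-associated network (CCAN), the inner kinetochore, 3 of 15 tested genes rose, 1 fell and 11 were not called, with a median log2 fold change of 0.09. CENPC, the protein that links CENPA nucleosomes to the outer kinetochore, had 493, 474 and 533 normalized reads in DMSO and 1428, 1140.1 and 1202 in THZ531. It was the largest gain of all members, 2.51-fold by the means, with a log2 fold change of 1.32 (SE 0.089, adjusted p = 2.1e-09 in limma). Every THZ531 library had more than 2 times the value of any DMSO library.

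CENPW, a histone-fold protein that pairs with CENPT, had 1385, 1318 and 1320.5 normalized reads in DMSO and 2262, 2121 and 2325 in THZ531, with a log2 fold change of 0.74 (SE 0.056). CENPT was itself lower, at -0.41 (SE 0.078) with groups apart, and was not called. It contains the antisense gene THAP11, which had a log2 fold change of 0.55. The remaining histone-fold pair, CENPS and CENPX, had 0.22 and 0.24 on the same scale.

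CENPU, of the CENPO subcomplex, had 1218, 1252 and 1147 normalized reads in DMSO and 1811, 1838 and 1812 in THZ531. The groups were apart, but its log2 fold change of 0.60 (SE 0.058) was close to the threshold, and it was not called with upper-quartile scaling (0.57), with edgeR (0.57) or without DMSO replicate 3 (0.56). CENPO, at 0.56, lay just outside the threshold and was called without DMSO replicate 1 (0.59) or without THZ531 replicate 2 (0.61). CENPP of the same subcomplex, at -0.56, was called without DMSO replicate 3 (-0.59), without THZ531 replicate 3 (-0.69) and with the equal sum (-0.80). CENPQ, at -0.34, was called with the equal sum (-0.59). The antisense gene PRIMPOL overlaps CENPU by 878 bases and had a log2 fold change of -1.04.

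CENPI was the member of the network that fell. It binds CENPH and CENPK and had 584, 599 and 535 normalized reads in DMSO and 246, 385 and 336 in THZ531, with a log2 fold change of -0.85 (SE 0.14, adjusted p = 3.9e-05 in limma). The highest THZ531 library was below the lowest DMSO library, while THZ531 replicate 1 lay well under the other two. CENPH, CENPK, CENPL, CENPM and CENPN were between -0.23 and 0.09. In the sixth intron of CENPQ, on its strand, a locus without a symbol (hg38 chr6:49485767-49487153) went from a mean of 27.6 ± 0.515 (SD, n = 3) to 6.01 ± 5.31, a log2 fold change of -2.63. It was kept among the tested loci only because all DMSO libraries reached the minimum, so this too is a description with no test.

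None of the 4 genes of the outer kinetochore and other CENP proteins passed both thresholds in limma, where 39.5% of all loci did. Without the size condition, 3 of the 4 reached an adjusted p of 0.05 or less, and so did 68.6% of all loci. CENPE, a kinesin-7 that moves chromosomes to the spindle equator, had 4880.1, 4975 and 5483 normalized reads in DMSO and 7665, 7572 and 7663 in THZ531. At 1.49-fold by the means it lay just outside the threshold, with a log2 fold change of 0.58 (SE 0.045, adjusted p = 1.2e-08 in limma), and it was called without DMSO replicate 3 (0.63) or without THZ531 replicate 2 (0.59). CENPF, a coiled-coil protein of the corona that peaks in G2 and mitosis, had 6095, 5679 and 6072 in DMSO and 7785, 8096 and 8200.4 in THZ531. Its groups did not overlap, with a log2 fold change of 0.43 (SE 0.041). CENPJ, a centriole protein, was at -0.24 and CENPV at 0.16.

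The span of the locus was compared with the response, since the inhibited kinases act on elongation. Across the 61 members, Spearman's rho between span and log2 fold change was -0.09, and it was -0.16 in kinesin genes (n = 40), 0.23 in CENP genes (n = 21) and -0.06 in the 15278 loci with a symbol. These values are across genes of the same libraries, which are not independent replicates. The median span was 77.0 kb for members that fell, 40.6 kb for those not called and 64.4 kb for those that rose. Above 200 kb, 2 of 6 members fell (KIF6 and KIF26B) and 0 rose, where 25.6% and 10.2% of loci of that span did. Between 100 and 200 kb, 1 of 8 fell (KIF24) and 2 rose (KIF1B and CENPW), against 23.7% and 13.6% of loci. For CENPW the span is that of the deposited locus (144 kb), while its annotated transcript has 3 exons and a longest intron of 5.8 kb. This locus span also enters the median of the members that rose. KIF4A, over 200 kb and not called, has a deposited locus of 271 kb that contains DLG3 on the same strand. The longest annotated intron of KIF4A is 27.0 kb, and the part of its locus span in the rank correlation was not tested. Between 50 and 100 kb, 5 of 17 fell and 2 rose, against 24.7% and 14.9%. Between 10 and 50 kb, 1 of 23 fell (KIF18B) and 2 rose (KIF5B and KIF23), against 24.7% and 11.2%. Under 10 kb, CENPB was the 1 of 7 members that fell and 0 rose, against 20.7% and 17.0% of loci. The rank correlation of the log2 fold change with the DMSO mean, which also enters that fold change, was 0.30 over the members and 0.18 over loci with a symbol.

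**Figure D3:**
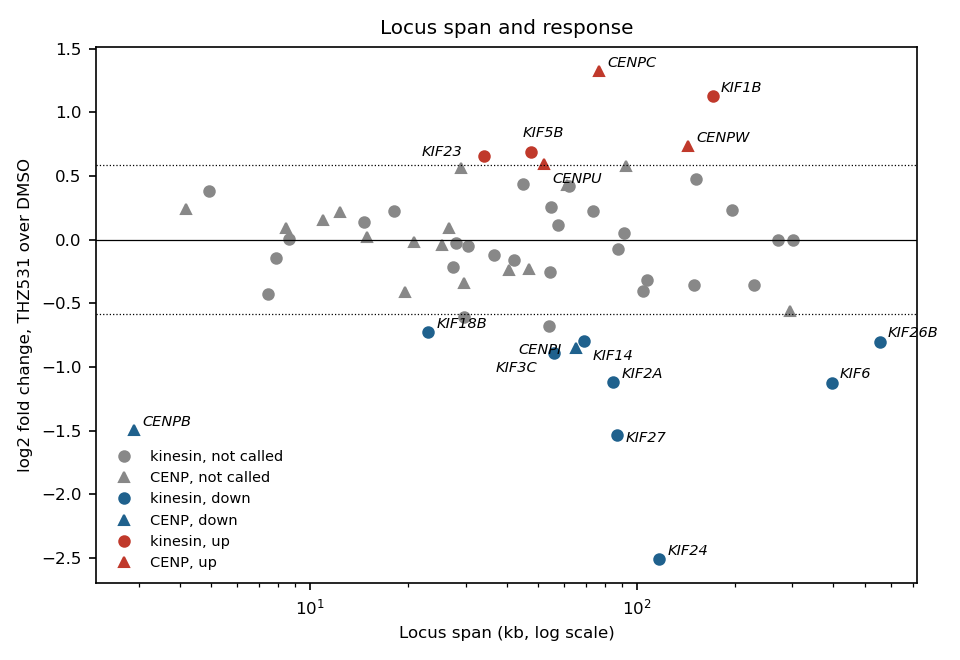
Log2 fold change (y axis) against locus span in kb (x axis, log scale) for the 61 tested members, with kinesin and CENP genes marked apart and dotted lines at the fold change threshold of 1.5. Genes that rose and fell both occur between 50 and 200 kb, and the shortest locus, CENPB at 2.89 kb, is among the largest losses.

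The partners of these proteins were counted in the same fit. Of 12 tested kinesin light chains and cargo adaptors, 1 rose and 2 fell: HAP1 at 1.19, APPBP2 at -2.75 and MAPK8IP3 at -0.78 on the log2 scale. The light chain KLC1 had 0.10. In dynein and dynactin, the machinery of movement toward the minus end, 2 of 22 tested genes rose (DCTN4 by 0.76 and DYNC1LI1 by 0.71) and 0 fell in limma, where 2 had an adjusted p of at most 0.05 in that direction and 14 in the other. Of all loci, 15.7% rose and 23.9% fell, and 34.6% and 34.1% had such an adjusted p. The median log2 fold change of this list was 0.31.

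Among 22 kinetochore and centromere partners, 1 rose and 7 fell, where 15.7% and 23.9% of all loci did. The gain was SKA1 (0.66), and the largest losses were KNTC1 (ROD, of the checkpoint complex RZZ) at -1.19, DSN1 and MIS12 of the MIS12 complex at -1.06 and -0.99, and SKA3 at -0.89. The 4 NDC80 complex genes divided, with SPC24 at -0.74 and NDC80, NUF2 and SPC25 between -0.11 and 0.17. ITGB3BP (CENPR) had a log2 fold change of 0.04. Of 20 other G2/M genes, 4 rose and 2 fell, against the same shares of all loci. They were led by CCNB2 (0.88) and ASPM (-0.65), and the list's median was 0.22. MKI67, TOP2A and CCNB1 were at 0.36, 0.02 and -0.26 and were not called.

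**Figure D4:**
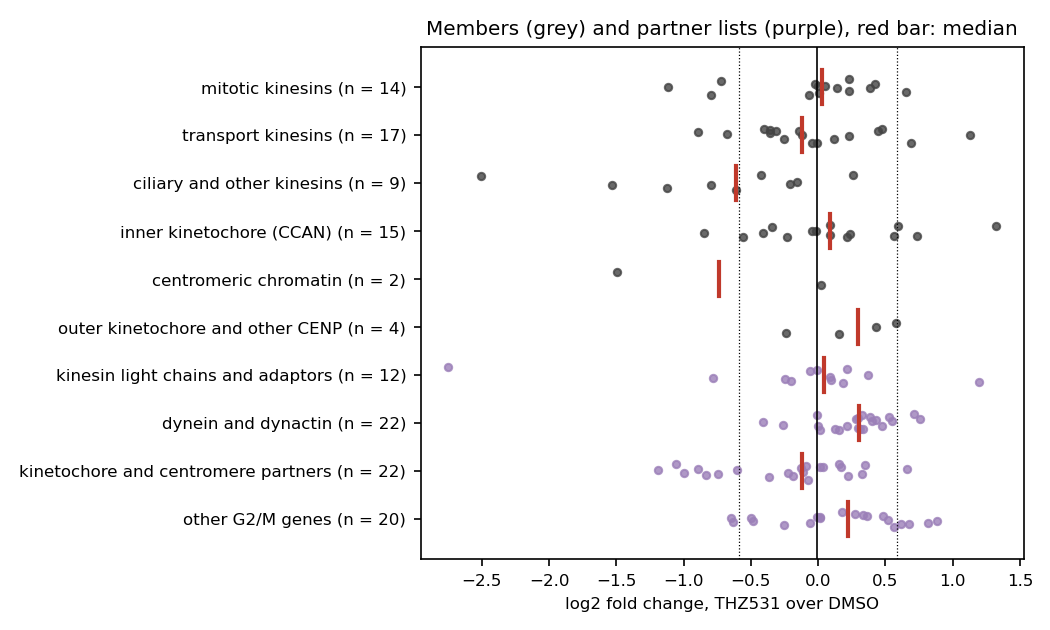
Log2 fold changes (x axis) of the tested genes in the 6 role lists of the members (grey points) and in 4 partner lists (purple points), with a red bar at each median, a solid line at the median of all loci and dotted lines at the fold change threshold of 1.5. The ciliary and other kinesins have the lowest median among lists of more than 2 genes (-0.61), and dynein and dynactin the highest of the partner lists (0.31).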

How the data were processed

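PolyA plus RNA of 6 OVCAR3 libraries was sequenced after a stranded mRNA preparation. The authors mapped reads to hg38 with STAR (2.7.5a in the submitters' processing notes; their methods name an earlier version), counted them with featureCounts on the FAST DB annotation and deposited DESeq2-normalized values, a signal of reads divided by 1 size factor per library. The strand setting of the counting is not given in the sources used here. In each library 100% of the deposited values were whole multiples of what 1 read is worth (tolerance 0.01 read), so reads were recovered. All columns of values were used.

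Values were compared as log2(value + 1) with limma 3.58.1 (trended variance, R 4.3.3), without covariates, over the 17568 loci that passed the minimum, with Benjamini-Hochberg adjustment over all of them. The step was tested on simulated data. edgeR 4.0.16 and DESeq2 1.42.0 on recovered reads, pseudocounts of 0.1 and 10, no minimum and one of 50, other scalings, an untrended variance, a fold change of 2, the adjusted p, the replicate number as a block and leaving out each library were alternatives. Spans, exons and strands are from GENCODE 44 or the deposited table. For loci that carry no symbol, strand was read from the order of identifiers, which was right for 98.5% of 23619 named loci. Promoters are from RefSeq.

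Values per library are given for called members that averaged 100 or more over the 6 libraries and whose groups did not overlap, and for 13 members listed whatever their result. The members, gene lists and tests were chosen with earlier results of these data known, so no list is independent evidence.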

Additional observations from a re-analysis of the deposited data

How the results depend on the processing

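Besides the stricter fold change of 2, the settings followed per gene, which leave out scaling to RPL34, ended the calls of CENPU, CENPW, KIF23 and KIF5B. No called member changed sign under any of these settings. Scaling to the same total gave 1 kinesin gene up and 13 down and 1 CENP gene up and 5 down, with medians of -0.34 and -0.15 on the log2 scale. Scaling to RPL34 gave 1 and 19 kinesin genes and 1 and 7 CENP genes, with medians of -0.59 and -0.40. A fold change of 2 left 1 kinesin gene up and 4 down and 1 CENP gene up and 1 down, so that KIF3C, CENPI, KIF26B, KIF14 and KIF18B were not called either. Fits with edgeR (3 up and 9 down, and 2 and 2) and DESeq2 (3 and 9, and 3 and 2) stayed within 1.5 times of the counts above.

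With 1 library left out, 3 kinesin genes rose and between 8 and 10 fell, while between 3 and 5 CENP genes rose (5 without THZ531 replicate 2) and 2 or 3 fell. The medians ranged from -0.10 to -0.04 for kinesin and from 0.05 to 0.13 for CENP genes, and the rank correlation with span from -0.12 to -0.07.

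Scaling to RPL34, which moved the median of all loci by -0.49 on the log2 scale, was followed by counts and medians only. Signs of single genes under it are not listed here. In the settings followed per gene, all changes of sign were in genes not called. With the same total they were CENPA (-0.22), CENPM (-0.15), CENPN (-0.15), CENPS (-0.027), CENPX (-0.00390), CENPV (-0.0872), KIF4A (-0.24), KIF20A (-0.23), KIF15 (-0.19), KIF22 (-0.10), KIF20B (-0.0160), KIFC1 (-0.0146), KIF3B (-0.12) and KIF13B (-0.00985). KIF4A and KIF20A turned with upper-quartile scaling (-0.0193 and -0.0125) and with edgeR (-0.0198 and -0.0131), and KIF16B with DESeq2 (0.00804). With 1 library left out, CENPA (-0.042 to 0.073), CENPH (-0.055 to 0.030), CENPL (-0.12 to 0.033), KIF16B (-0.14 to 0.072), KIF19 (-1.17 to 0.11), KIF20A (-0.0051 to 0.031), KIF2C (-0.060 to 0.0097) and KIF4A (-0.019 to 0.019) crossed 0. The cause was not tested, except that scaling to the same total shifts every gene of a library alike.

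Libraries with the same replicate number did not deviate together (correlations of 0.0017, 0.019 and -0.039), and a replicate block gave 3 kinesin genes up and 9 down and 3 CENP genes up and 2 down, KIF17 (-0.68) being added. The standard errors of KIF19, KIF17, KIF4B and KIF1A were 0.27 or more, and the part of depth in them was not tested.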

Other observations

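Of the 63 members, 21 share bases with another tested locus. On the opposite strand of KIF7, the DNA replication gene TICRR overlaps it by 3080 bases and had 1262, 1246 and 1375 normalized reads in DMSO and 2560.5, 2417 and 2253 in THZ531, a log2 fold change of 0.90 (SE 0.062), while KIF7 was not called. The antisense locus KIF9-AS1, which shares 18604 bases with KIF9, had -0.81 (SE 0.29) on the same scale, beside 0.26 for KIF9. CDC23, a subunit of the anaphase-promoting complex that overlaps KIF20A by 3040 bases on the other strand, was at 0.14 and KIF20A at 0.01. CENPP, at -0.56, overlaps NOL8 by 89 bases and IPPK by 7347 bases, which were at -0.57 and 0.26.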
